A study of Mus musculus with 7 samples.

Results

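The genes described here are the ligands, receptors and neuropilin co-receptors of vascular endothelial growth factor (VEGF) signalling. They are the ligands Vegfa, Vegfb, Vegfc and Pgf, the tyrosine kinase receptors Kdr, Flt1 and Flt4, and the co-receptors Nrp1 and Nrp2. They were taken by name, and all 9 were found as single rows among the 23358 genes of the authors' table. The table compares RNA from brain cells of C57Bl6 mouse embryos at stage E14.5, labelled as endothelial and sorted on TdTomato, a red protein that the Ai14 reporter allele makes where Cre recombinase has acted. One group of 3 libraries is labelled as controls and the other, of 4 libraries, as lacking Tgfbr2, a receptor through which transforming growth factor β signals. RNA of 2000 to 5000 sorted cells went into a library. The sources used here give neither the Cre driver, the deleted exons nor any further genotype of the controls, and do not say whether the libraries of 1 group are from different embryos.

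VEGF-A drives the growth of blood vessels into the developing brain, where neural progenitors secrete it and endothelial cells carry its receptors. KDR (VEGFR2) passes on most of the signal, FLT1 (VEGFR1) binds VEGF-A, VEGF-B and placental growth factor (PGF) and in a soluble form acts as a trap, and FLT4 (VEGFR3) is the receptor of VEGF-C in lymphatic and sprouting vessels. The neuropilins bind both VEGFs and class 3 semaphorins, and NRP1 is also made by neurons and by macrophages.

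Each level below is 1 FPKM value per group (fragments per transcript length in kilobases, corrected for library size) that the authors combined from the libraries, so no spread between libraries could be computed and the depth of the libraries is unknown. The error measure for a gene is the q-value of the authors' Cuffdiff test, and a gene was called higher or lower at q under 0.05. If the libraries of a group are not separate embryos, these q-values measure technical spread only. The targeted gene, Tgfbr2, measured 91.1 FPKM in controls and 65.4 FPKM with Tgfbr2 deficiency, a log2 fold of −0.48 with q = 0.0953 in the authors' deposited table, so it did not pass.

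The cell type on the labels was checked against marker genes. In the control group 20 pan-endothelial markers summed to 109 FPKM and 20 microglia and macrophage markers to 15098 FPKM. In the Tgfbr2-deficient group the sums were 517 and 7155 FPKM. Of the endothelial sums Egfl7, the marker of that list that did not pass, gave 47.7 FPKM in the control and 64.7 FPKM in the Tgfbr2-deficient group. Macrophage markers thus stood far above endothelial markers in both groups, which goes against a purely endothelial sort, and the endothelial label is used here only as the submitters' name. Of the endothelial markers 19 of 20 were higher and 0 lower, and of the macrophage markers 0 were higher and 18 of 20 lower. Of all 13356 genes reaching 1 FPKM in either group, 23.9% were higher and 14.7% lower. Of the 19 higher endothelial markers 8 were under 1 FPKM in the control group and reached that level only where they were high. Of the 12 endothelial markers at 1 FPKM or more in both groups, 11 were higher and 0 lower. None of either list was at 0 FPKM in either group. In these bulk libraries fewer cells of a type and less RNA per cell cannot be told apart. The part of this change in cell markers in the results below was not tested.

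Of the 9 VEGF genes, 7 were higher with Tgfbr2 deficiency and 2, Vegfb and Nrp1, were lower. Among the 13356 genes tested, those reaching 1 FPKM in either group, 23.9% were called higher and 14.7% lower. Vegfc, Pgf, Flt1 and Flt4 were below 1 FPKM in the control group, so these 4 passed the level filter only through the group in which they were high, and the median log2(FPKM + 1) difference of 1.66 over the 9 genes, beside −0.08 for all genes tested, is a description only. Of the 5 genes at 1 FPKM or more in both groups, 3 (Vegfa, Kdr and Nrp2) were higher and 2 lower, where 16.7% of 11599 genes were higher and 16.7% lower. Without the level filter the members' counts stay at 7 and 2, since all 9 had passed it, against 24.8% of 14043 genes higher and 14% lower. At a minimum of 5 FPKM they were 5 and 2, against 17.2% of 9558 genes higher and 19.5% lower.

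**Figure D1:**
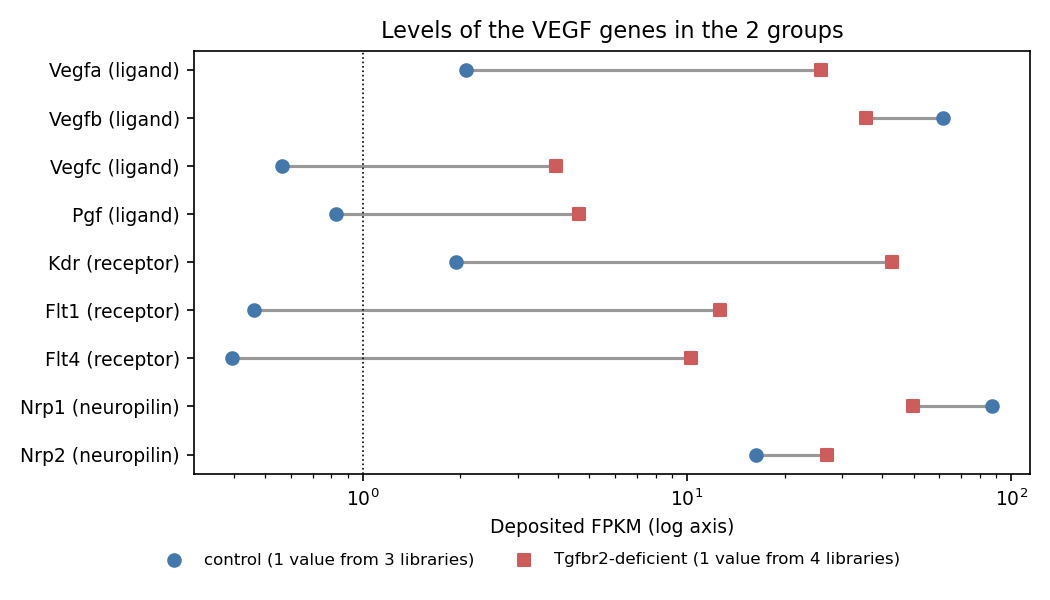
Deposited FPKM of each VEGF gene on a log axis, with the control group as circles and the Tgfbr2-deficient group as squares, 1 value per group; the dotted line is at 1 FPKM. The 3 receptors, Vegfa, Vegfc, Pgf and Nrp2 lie to the right in the Tgfbr2-deficient group, and Vegfb and Nrp1 lie to the left.

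The 3 tyrosine kinase receptors had the largest FPKM ratios between the groups of all 9 genes, with control levels below 1 FPKM for Flt1 and Flt4. Kdr stood at 1.94 FPKM in the control and 43.0 FPKM in the Tgfbr2-deficient group, a ratio of 22.2. Flt1 stood at 0.462 and 12.7 FPKM, a ratio of 27.4. Flt4 stood at 0.396 and 10.3 FPKM, a ratio of 26.1. The log2 folds in the authors' deposited table are 4.47 for Kdr, 4.78 for Flt1 and 4.70 for Flt4. All 3 receptors share the smallest p-value of that table, 5e-05, with q = 0.00029 in the authors' deposited table.

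Ordered by the log2(FPKM + 1) difference, Kdr ranked 24th from the top among all 13356 genes tested, Flt1 61st and Flt4 87th, with the ligand Vegfa 71st, above Flt4 on this scale. In the control group Kdr was above 21.3% of the tested genes, and in the Tgfbr2-deficient group above 86.3%. Flt1 moved from the level above 5.35% of tested genes to that above 56.5%, and Flt4 from 4.31% to 50.6%. Flt1 and Flt4 thus lay near the bottom of the tested levels in the control group.

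The proportions among the receptors changed far less than their levels. Flt1 was 0.238 times Kdr in the control group and 0.294 times in the Tgfbr2-deficient group. Flt4 was 0.204 and 0.240 times Kdr. The FPKM of the 3 receptors summed to 2.79 and 66.0, a ratio of 23.6, and Kdr made up 69.3% and 65.2% of these sums. These ratios have no replicate values, and differences between them were not tested. GENCODE M21 lists 2 protein-coding transcripts of Flt1, and a value per gene does not separate the membrane-bound from the soluble form.

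Pan-endothelial markers moved in the same direction as the receptors. Of the 19 higher markers 8 were, like Flt1 and Flt4, under 1 FPKM in the control group. On the log2(FPKM + 1) scale the differences of all 20 markers ran from 0.43, that of Egfl7, to 3.67 with a median of 2.65. Kdr, at 3.91, lay above all 20 markers. Flt1, at 3.22, lay above 17 of 20, and Flt4, at 3.02, above 15 of 20. This order depends on the added 1 FPKM. By the log2 folds in the authors' deposited table, which have no pseudocount, each of the 3 receptors lay above 19 of 20 markers and below Clec14a, an endothelial lectin at 5.45, and Flt1 and Flt4 lay above Kdr. The deposited folds of the markers ran from 0.44 to 5.45 with a median of 3.63 in the authors' deposited table. The ratio of Kdr to a marker was between 0.507 and 16.4 times as large in the Tgfbr2-deficient group as in the control group over the 20 markers, with a median of 1.79. These comparisons without a pseudocount were added after the values were seen, and no test of the differences was possible.

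**Figure D2:**
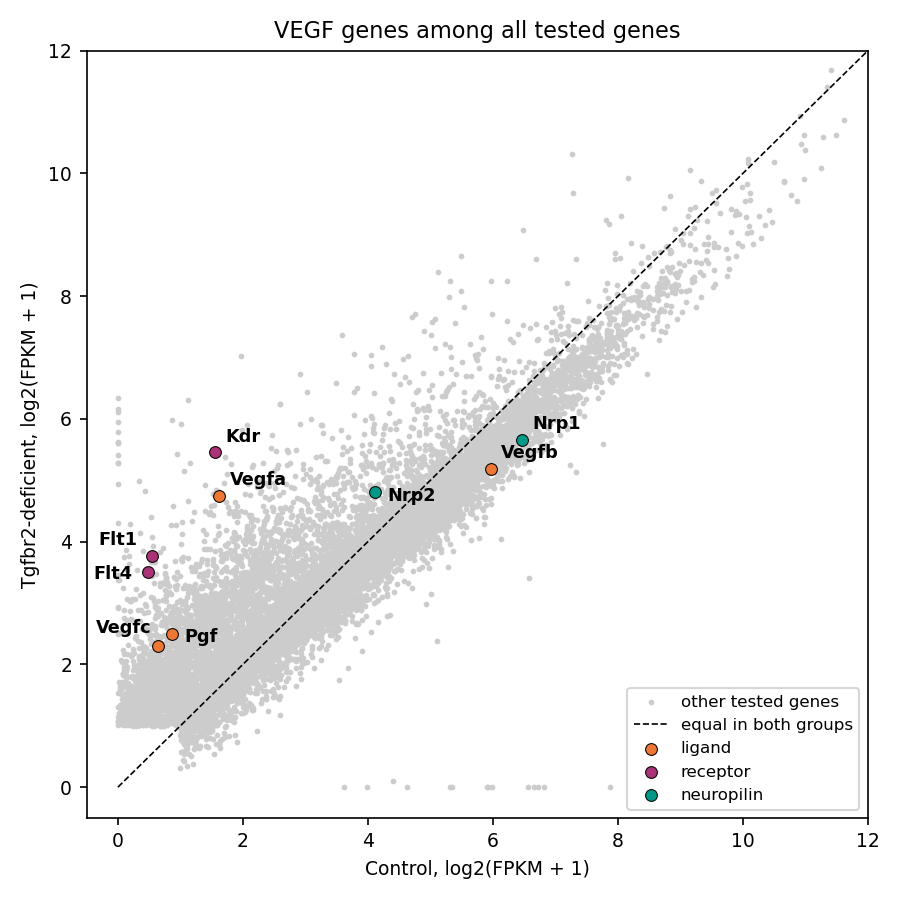
Level of every tested gene in the Tgfbr2-deficient group (vertical axis) against the control group (horizontal axis), both as log2(FPKM + 1), with the VEGF genes in colour by role and a dashed line where the groups are equal. Kdr, Vegfa, Flt1 and Flt4 lie far above the line, Vegfc and Pgf above it at low levels, Nrp2 just above it and Vegfb and Nrp1 below it. The empty lower left corner is the filter of 1 FPKM.

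The 4 ligands did not move together. Vegfa, the ligand of KDR and FLT1, stood at 2.08 FPKM in the control and 26.0 FPKM in the Tgfbr2-deficient group, a ratio of 12.5, with q = 0.00029 in the authors' deposited table. Vegfc, which signals through FLT4, stood at 0.564 and 3.93 FPKM, a ratio of 6.97. Pgf, whose kinase receptor is FLT1, stood at 0.828 and 4.64 FPKM, a ratio of 5.60. Vegfc and Pgf also have q = 0.00029 in the authors' deposited table. Their levels were low in both groups, and at a minimum of 5 FPKM neither gene is kept.

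Vegfb went the other way. This FLT1 ligand, which is more tied to fatty acid uptake and cell survival than to vessel sprouting, fell from 61.4 to 35.5 FPKM, with a log2 fold of −0.79 and q = 0.00263 in the authors' deposited table. Its log2(FPKM + 1) difference, −0.77, lay within the range of the macrophage markers, −1.44 to −0.21, whose median was −1.08. It was below all 20 pan-endothelial markers.

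The makeup of the ligand transcripts differed more than their sum, whose ratio between the groups was 1.08. The summed FPKM of the 4 ligands was 64.8 in controls and 70.0 with Tgfbr2 deficiency. Vegfb made up 94.6% of the first sum and 50.7% of the second, and Vegfa 3.21% and 37.1%. Vegfa was 0.0339 times Vegfb in the control group and 0.731 times in the Tgfbr2-deficient group. Pgf was 0.398 and 0.179 times Vegfa. GENCODE M21 lists 8 protein-coding transcripts of Vegfa, which include its isoforms of different heparin binding, and these were not separated.

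Figf, the table's name for the gene of VEGF-D, another ligand of FLT4, was at 0.0364 FPKM in the control and 1.16 FPKM in the Tgfbr2-deficient group. It did not pass, and the authors' deposited table gives it q = 0.158.

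**Figure D3:**
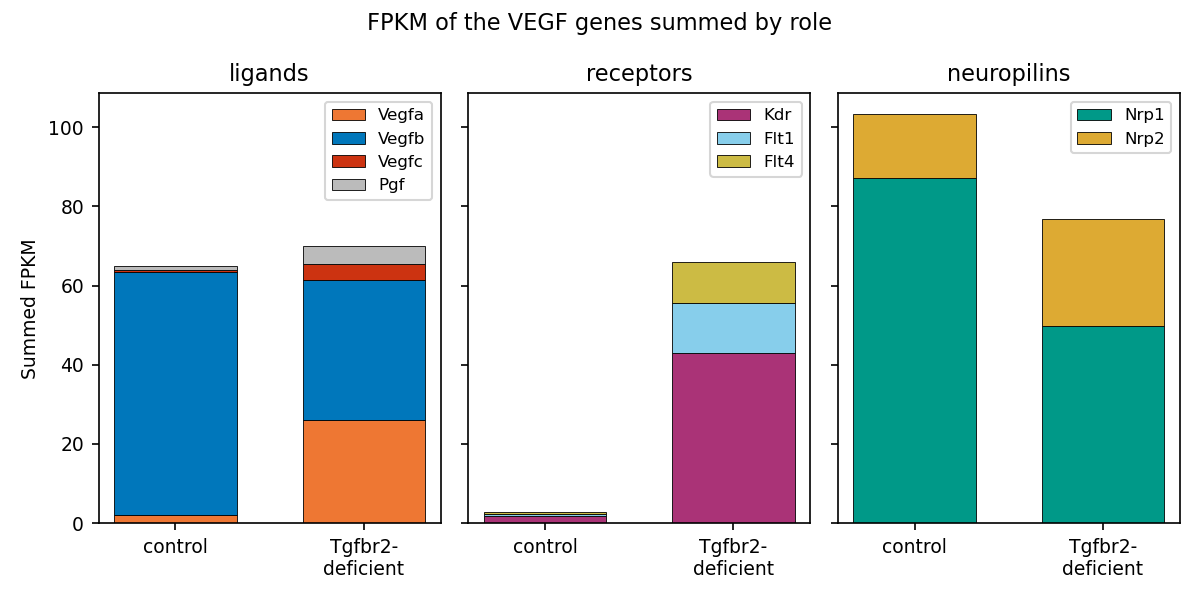
FPKM summed within ligands, receptors and neuropilins (vertical axis, from 0) in the control and Tgfbr2-deficient groups, with 1 colour per gene. The ligand sums are 64.8 and 70.0, the receptor sums 2.79 and 66.0, and the neuropilin sums 103 and 76.7 FPKM.

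The 2 neuropilins moved in opposite directions. Nrp1, the co-receptor that presents VEGF-A to KDR and also binds semaphorin 3A, was the most abundant of the 9 genes in both groups. It fell from 87.1 to 49.7 FPKM, with a log2 fold of −0.81 and q = 0.00283 in the authors' deposited table. Nrp2, which binds VEGF-C and semaphorin 3F and marks veins and lymphatics, rose from 16.3 to 27.0 FPKM, with a log2 fold of 0.73 and q = 0.00244 in the authors' deposited table. Nrp1 was 5.35 times Nrp2 in the control group and 1.84 times in the Tgfbr2-deficient group.

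Nrp1 moved against the kinase receptors, while Nrp2 rose as they did, by less. Nrp1 was 45.0 times Kdr in the control group and 1.16 times in the Tgfbr2-deficient group, and Nrp2 was 8.41 and 0.628 times Kdr. The log2(FPKM + 1) difference of Nrp1, −0.80, was below that of all 20 pan-endothelial markers and above that of 17 of the 20 macrophage markers. That of Nrp2, 0.70, was below 19 of the 20 pan-endothelial markers and above all 20 macrophage markers. Centring on the ribosomal protein genes adds 0.54 to every difference, which leaves Nrp1 at −0.25 and Vegfb at −0.23.

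By level, the order in the control group was Nrp1, Vegfb, Nrp2, Vegfa, Kdr, Pgf, Vegfc, Flt1 and Flt4. In the Tgfbr2-deficient group it was Nrp1, Kdr, Vegfb, Nrp2, Vegfa, Flt1, Flt4, Pgf and Vegfc. Neighbours in these orders could not be compared against a spread. Some were close, such as Vegfa and Kdr in the control group, at a ratio of 1.08, and Nrp2 and Vegfa in the Tgfbr2-deficient group, at 1.04.

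Genes with the pattern nearest to Kdr and Nrp1 were found by the distance in log2(FPKM + 1) over the 2 group values, which is a likeness over 2 points only. Those nearest to Kdr were Esam, an adhesion molecule of endothelial junctions, at 2.28 and 40.6 FPKM, Rasip1, a regulator of vessel lumen formation, at 2.52 and 37.6 FPKM, and Lox, which cross-links collagen, at 2.36 and 33.3 FPKM. Those nearest to Nrp1 were Rbms1, an RNA-binding protein gene, at 86.5 and 48.5 FPKM, Emg1, a ribosome assembly gene, at 83.0 and 50.1 FPKM, and Stxbp2, a secretion gene of blood cells, at 89.5 and 51.9 FPKM. For Emg1, which did not pass, the authors' deposited table gives q = 0.0879.

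The stretches before the transcription starts of Kdr and Flt1, which rose, are shown with those of Vegfa, the ligand that rose most, and of Nrp1, which fell, since endothelial promoters are known for binding sites of ETS factors. They are RefSeq sequences of GRCm38.p6, each given 5′ to 3′ on the strand of its gene. Each ends at the last base before the first exon annotated by GENCODE or before the RefSeq start. The Nrp1 stretch ends before the RefSeq start, but GENCODE starts this gene at 128358604, upstream of the stretch. It thus lies within the gene as GENCODE annotates it, with 0 bases in GENCODE exons. Capitals mark each GGAA, the core that ETS factors bind, on either strand (TTCC is GGAA on the other strand). Kdr is on the minus strand at chr5:75978459-75978705, Flt1 on the minus strand at chr5:147726012-147726261, Vegfa on the minus strand at chr17:46032378-46032627, and Nrp1 on the plus strand at chr8:128358823-128359072.
Kdr: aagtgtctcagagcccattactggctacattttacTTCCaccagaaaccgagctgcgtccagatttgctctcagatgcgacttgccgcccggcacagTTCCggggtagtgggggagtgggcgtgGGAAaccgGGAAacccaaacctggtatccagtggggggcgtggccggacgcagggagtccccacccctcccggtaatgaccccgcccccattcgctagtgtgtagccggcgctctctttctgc
Flt1: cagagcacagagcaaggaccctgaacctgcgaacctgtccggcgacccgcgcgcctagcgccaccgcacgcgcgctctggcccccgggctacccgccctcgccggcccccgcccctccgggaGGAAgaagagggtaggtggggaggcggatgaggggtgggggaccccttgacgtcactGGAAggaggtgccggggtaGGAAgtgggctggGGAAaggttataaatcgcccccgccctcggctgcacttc
Vegfa: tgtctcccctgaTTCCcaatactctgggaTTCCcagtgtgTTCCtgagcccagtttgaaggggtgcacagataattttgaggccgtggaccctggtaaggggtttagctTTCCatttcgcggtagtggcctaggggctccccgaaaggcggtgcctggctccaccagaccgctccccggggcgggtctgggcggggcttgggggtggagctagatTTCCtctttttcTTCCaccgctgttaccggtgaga
Nrp1: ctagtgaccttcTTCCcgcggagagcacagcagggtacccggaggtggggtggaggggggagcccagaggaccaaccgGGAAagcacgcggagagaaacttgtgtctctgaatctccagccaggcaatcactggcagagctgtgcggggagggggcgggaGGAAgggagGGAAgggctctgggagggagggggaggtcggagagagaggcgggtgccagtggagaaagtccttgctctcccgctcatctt

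Kdr, Flt1 and Nrp1 each held 4 matches of GGAA and Vegfa held 6. Of all 32851 RefSeq windows of 250 bases before a start, 93.4% held at least 1 match, 33.4% at least 4 and 8.69% at least 6. The count of this core therefore did not separate Kdr and Flt1, which rose, from Nrp1, which fell. In the windows of the other genes, which are not shown, it was 2 for Flt4, 1 for each of Vegfc, Nrp2 and Vegfb, and 0 for Pgf. The full cyclic AMP response element, TGACGTCA, was present once in the Flt1 window and in 1.55% of all windows, and in none of the windows of the other 8 genes. ACGTG, a core that hypoxia-inducible factors bind, was in 16.6% of all windows and in none of the 4 windows shown. CAGAC, which SMAD proteins can bind, was found 2 times in the Vegfa window shown and in 42.2% of all windows, and in none of the other 3. A second Vegfa window, before a start inside the gene and not shown, held 1 match of the hypoxia core and 1 of the SMAD letters. These matches were searched on both strands and are letters only; the data hold no measure of binding.

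In mm10 coordinates counted from 1, the table places Kdr on chromosome 5 from 75933270 to 75978428, Flt1 on chromosome 5 from 147562196 to 147725988 and Flt4 on chromosome 11 from 49609679 to 49652739. Vegfa lies on chromosome 17 from 46016993 to 46032377, Vegfb on chromosome 19 from 6982472 to 6987651, Vegfc on chromosome 8 from 54077532 to 54186454 and Pgf on chromosome 12 from 85166639 to 85177313. Nrp1 lies on chromosome 8 from 128359073 to 128505475 and Nrp2 on chromosome 1 from 62703317 to 62818692. GENCODE M21 annotates all 9 as protein-coding. The libraries do not mark strand, so overlapping genes matter here. The exons of 8 of the genes share 0 bases with exons of another GENCODE gene. Those of Nrp1 share 80 bases with Mir1903, a microRNA listed at 0 FPKM in both groups.

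Downstream of the receptors, 43 genes of VEGF signal transduction were looked at. Of 42 tested, 11 (26.2%) were higher and 8 (19.0%) lower, near the 23.9% and 14.7% of all tested genes, and the median log2 difference was −0.22. Of the 11 higher genes 1, Ptprb, was under 1 FPKM in the control group and passed the level filter only where it was high. Of the 41 at 1 FPKM or more in both groups 10 were higher and 8 lower, where 16.7% of all such genes were higher and 16.7% lower. Those that rose included Rasip1, Bcar1, a scaffold of focal adhesions, from 4.21 to 20.3 FPKM, and the kinases Src, from 4.68 to 14.0 FPKM, and Ptk2, which is focal adhesion kinase, from 6.08 to 15.4 FPKM. Plcg1, the phospholipase that binds activated KDR, rose from 8.83 to 20.5 FPKM. Ptprb, the vascular phosphatase that restrains KDR and TEK, rose from 0.126 to 1.53 FPKM. The lower genes included Prkcd, from 148 to 75.1 FPKM, Mapkapk2, the kinase below p38, from 229 to 132 FPKM, and Nfatc2 from 21.9 to 11.4 FPKM. Akt1, a kinase of survival signalling, was at 208 and 158 FPKM and did not pass. Plcg1, Ptprb, Akt1, Prkcd, Mapkapk2 and Nfatc2 were chosen after their values were seen.

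Among genes that VEGF is known to induce in endothelium, 30 were tested, of which 19 (63.3%) were higher and 4 (13.3%) lower, beside 23.9% and 14.7% of all tested genes. Of the 19 higher genes 11 were under 1 FPKM in the control group and passed the level filter only through the group in which they were high. Of the 19 genes at 1 FPKM or more in both groups, 8 were higher and 4 lower, where 16.7% of all such genes were higher and 16.7% lower. Dll4, the Notch ligand of tip cells, rose from 0.754 to 8.71 FPKM and Apln, the peptide apelin, from 0.475 to 14.3 FPKM. Nos3, which makes nitric oxide in endothelium, rose from 0.673 to 9.13 FPKM and Sox17, a factor of arteries, from 0.340 to 6.16 FPKM. These 4 were all under 1 FPKM in the control group and are also genes of endothelial identity. Sox17 is also among the pan-endothelial markers. The 4 that fell were Egr1, an immediate-early factor, from 94.8 to 34.0 FPKM, Hlx from 69.1 to 34.4 FPKM, Mef2c from 47.7 to 23.4 FPKM and Myc from 71.6 to 39.4 FPKM. The part of any cell type in the rises and falls of these genes was not tested. Nr4a1, an immediate-early nuclear receptor, rose from 3.49 to 8.60 FPKM. Rcan1, the calcineurin regulator that VEGF induces through NFAT, was at 20.2 and 21.5 FPKM and did not pass.

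The semaphorin and plexin partners of the neuropilins included members of each direction. Of 14 tested, 12 (85.7%) were higher and 2 (14.3%) lower, beside 23.9% and 14.7% of all tested genes. Of the 12 higher genes 6 were under 1 FPKM in the control group. Of the 8 at 1 FPKM or more in both groups 6 were higher and 2 lower, where 16.7% of all such genes were higher and 16.7% lower. Sema3c rose from 0.554 to 7.23 FPKM, Sema3a from 0.473 to 3.07 FPKM and Sema3f from 2.71 to 10.5 FPKM. Plxna2, a plexin that signals for semaphorins bound to neuropilins, rose from 1.77 to 7.55 FPKM. The 2 that fell were Plxnd1, the plexin of vessels, from 92.8 to 54.0 FPKM, and Gipc1, the adaptor that binds the tail of NRP1, from 178 to 95.3 FPKM. Like Nrp1, both were at high levels in the control group, where the macrophage markers stood at a median of 494 FPKM. A level in bulk libraries does not assign a gene to a cell type, and the cells that gave these transcripts were not tested.

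Vegfa is a target of hypoxia-inducible factors, so their regulators and other targets were set beside it. Of 20 tested, 9 (45.0%) were higher and 1 (5%) lower, beside 23.9% and 14.7% of all tested genes. Of the 9 higher genes 3 were under 1 FPKM in the control group. Of the 17 at 1 FPKM or more in both groups 6 were higher and 1 lower, where 16.7% of all such genes were higher and 16.7% lower. Epas1, the hypoxia-inducible factor of endothelium, rose from 0.711 to 9.66 FPKM and Egln3, a prolyl hydroxylase, from 0.523 to 10.2 FPKM. Adm, the peptide adrenomedullin, rose from 0.353 to 27.3 FPKM and Ddit4, an inhibitor of mTOR signalling, from 3.46 to 37.1 FPKM. Hif1a, at 25.1 and 29.3 FPKM, and the glycolytic targets Ldha, at 758 and 853 FPKM, and Pgk1, at 185 and 200 FPKM, did not pass. Egln2, another prolyl hydroxylase, fell from 64.6 to 43.9 FPKM. The other higher genes, each above 1 FPKM in both groups, were Slc2a1, Bnip3, Ankrd37, Ndrg1 and P4ha2. Slc2a1 rose from 31.7 to 191 FPKM and Bnip3 from 39.2 to 111 FPKM. Adm and Epas1 are expressed by endothelium, whose markers rose in the same group. The part of any cell type in the changes of this list was not tested.

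Of 22 tested extracellular modulators of VEGF, 16 (72.7%) were higher and 2 (9.09%) lower, beside 23.9% and 14.7% of all tested genes. Cdh5 and Egfl7 of this list are also among the pan-endothelial markers. Of the 16 higher genes 8 were under 1 FPKM in the control group. Of the 13 at 1 FPKM or more in both groups 8 were higher and 2 lower, where 16.7% of all such genes were higher and 16.7% lower. Thbs1, an inhibitor of vessel growth, rose from 10.3 to 94.6 FPKM, and Itgb3, an integrin that works with KDR and is also abundant on platelets, from 0.439 to 20.1 FPKM. Ctgf, which binds VEGF-A, rose from 0.680 to 10.2 FPKM and the related Nov from 0.224 to 8.39 FPKM. Hspg2, the heparan sulphate proteoglycan perlecan, rose from 0.905 to 9.50 FPKM. The 2 that fell were Sdc4, from 37.7 to 19.6 FPKM, and the protease Adam17, from 53.9 to 36.1 FPKM.

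**Figure D4:**
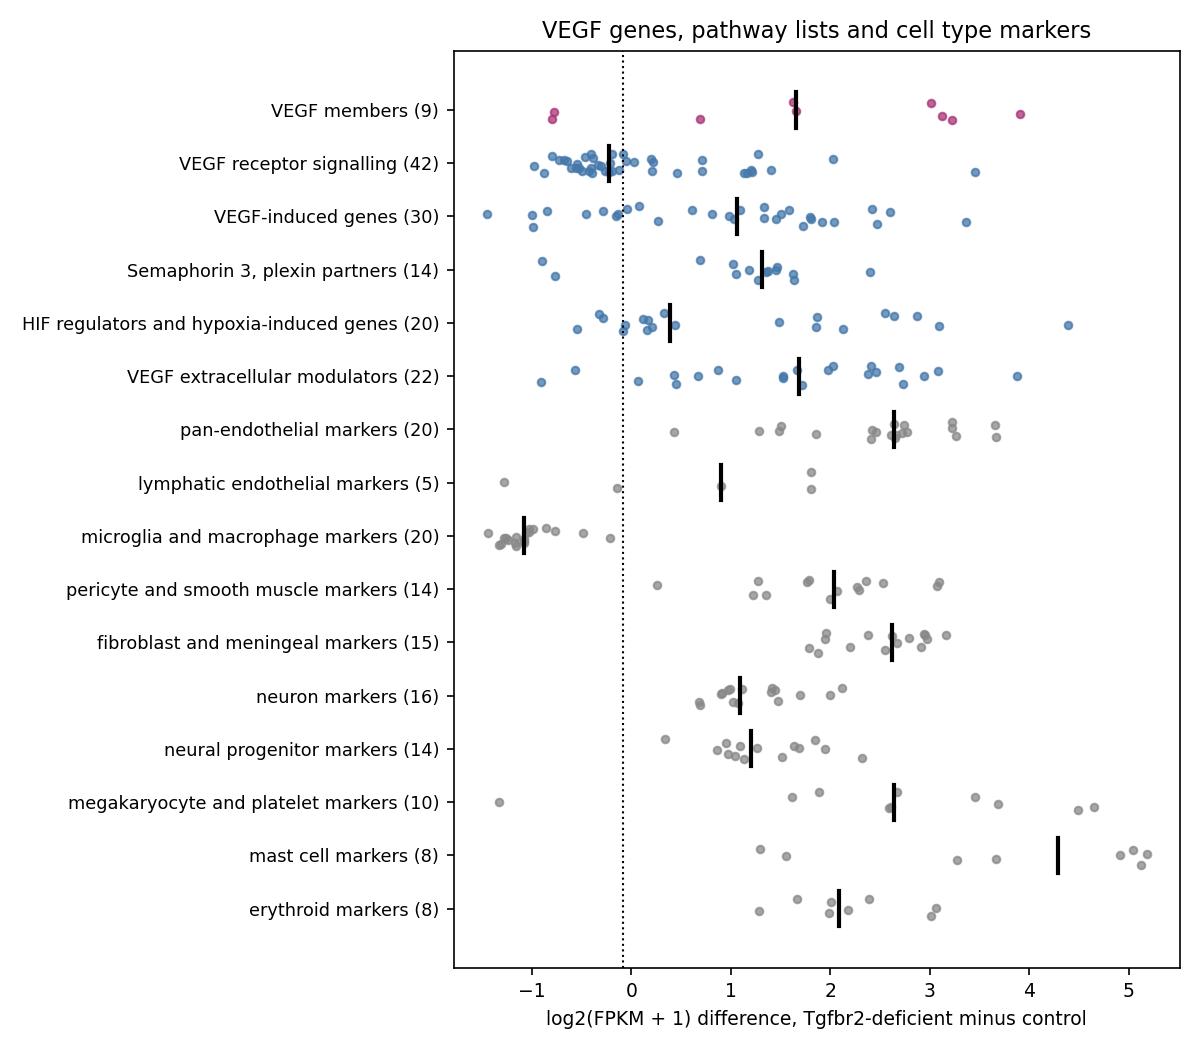
The log2(FPKM + 1) difference of each tested gene (points, scattered in height for view) in the VEGF genes, the pathway lists (blue) and the cell type markers (grey), with list medians as bars, the number tested in brackets and the median of all tested genes as a dotted line. The VEGF genes spread from −0.80 to 3.91, while the macrophage markers all lie below 0.

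Markers of cells other than endothelium that can make or sense VEGF also differed between the groups. Of all genes tested 23.9% were higher and 14.7% lower. All 15 fibroblast and meningeal markers were higher, with sums of 152 and 1226 FPKM and a median log2 difference of 2.62. Of 14 tested pericyte and smooth muscle markers 10 were higher and 0 lower, with sums of 25.3 and 167 FPKM. Of 14 neural progenitor markers 13 were higher and 0 lower, with sums of 211 and 377 FPKM. Vim, the progenitor marker that did not pass, gave 154 and 195 FPKM of these sums. All 16 neuron markers were higher, with sums of 139 and 324 FPKM. Megakaryocyte and platelet markers, 8 of 10 higher and 1 lower, summed to 1886 and 903 FPKM, of which Pf4, also made by macrophages, gave 1877 and 747 FPKM. Mast cell markers, 5 of 8 tested higher and 0 lower, summed to 8.09 and 373 FPKM. Erythroid markers, 8 of 8 tested higher, summed to 359 and 2351 FPKM. Some higher markers were under 1 FPKM in the control group and passed the level filter only where they were high. These were 4 of the 10 pericyte and smooth muscle, 3 of the 13 neural progenitor and 6 of the 8 megakaryocyte and platelet markers. They also included 1 of the 5 mast cell and 1 of the 8 erythroid markers. Of the 3 megakaryocyte and platelet markers at 1 FPKM or more in both groups, 2 were higher and 1 lower. Mrgprb2, of mast cells, was the 1 marker among all these lists listed at 0 FPKM, in both groups.

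The log2(FPKM + 1) difference of Vegfa, 3.13, was above all 14 neural progenitor markers, whose highest was 2.32, and above 14 of 15 fibroblast markers. Those of Vegfc, 1.66, and Pgf, 1.63, were below all 15 fibroblast markers, whose lowest was 1.78. The order against the fibroblast markers depends on the added 1 FPKM. By the log2 folds in the authors' deposited table Vegfa, at 3.64, lay above the highest fibroblast marker, Col6a1, at 3.26. Vegfc, at 2.80, and Pgf, at 2.49, lay above the lowest, Foxd1, at 2.11, and below Col6a1. This comparison without a pseudocount was added after the values were seen. The part of these cells in the levels of the ligands was not tested.

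Lymphatic endothelium, in which FLT4 and VEGF-C act, was checked with 5 markers found in the table, of which 3 were higher and 1 lower. Of all genes tested 23.9% were higher and 14.7% lower, and 1 of the 3 higher markers was under 1 FPKM in the control group. Prox1, the factor that sets lymphatic identity, rose from 2.22 to 5.0 FPKM and Pdpn, which other cells also make, from 1.13 to 6.46 FPKM. Reln, the other higher marker, rose from 0.945 to 5.82 FPKM. Lyve1, which is also a marker of macrophages at brain borders, fell from 520 to 214 FPKM. The cells that gave the transcripts of these markers, Prox1 among them, were not tested.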

How the data were processed

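RNA of sorted embryonic brain cells was sequenced in 3 control and 4 Tgfbr2-deficient libraries, grouped by the genotype in the labels. Per the labels' protocols, cDNA was made with the SMART-Seq v4 kit and libraries with Nextera XT, which do not mark strand, and reads were single-end of 50 bases. Per the submitters' processing notes the build was mm10 and the tools TopHat2, Cufflinks 2.2.1 and Cuffdiff; the sources used here do not name the annotation, library normalization or test options. The FPKM values are those of the authors' Cuffdiff, 1 per gene and group. The deposited log2 fold has no pseudocount, and recomputing it from the FPKM values gave differences of up to 3.6e-05. The deposited p-value and q-value are those of the authors' test, and 2357 tested genes share the smallest p-value, 5e-05. The deposited test statistic, a score, was not used.

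Genes with status OK and 1 FPKM or more in at least 1 group were tested by the deposited q-value at 0.05. Differences for lists are log2(FPKM + 1), which understates the change of low genes. The members and lists were chosen with earlier results of these data known. Genes named were the 9 members, up to 4 called genes per pathway list by smallest p-value then largest difference, the 3 genes nearest to Kdr and to Nrp1, and the targeted gene. The rule also named the 2 most abundant genes of each marker list, which are here given by their sums except Pf4, Lyve1, Vim and Egfl7. Other names were chosen after their values were seen. Of 277 list symbols 276 matched, 2 through RefSeq synonyms of GRCm38.p6, and Ccl21a did not. List counts are descriptions with no list test. Deposited starts count from 0 and were raised by 1: 10541 of 21460 symbols then had exactly the RefSeq start. The Benjamini-Hochberg and calling steps written here, not the authors' test, were tested on simulated data. Python 3.11.15, pandas 2.3.3 and numpy 2.4.6 were used. An item of the signalling list is counted but not reported here by name.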

Additional observations from a re-analysis of the deposited data

How the results depend on the processing

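The calls of all 9 VEGF genes kept their direction at q under 0.01 and with recomputed q-values. They also stayed without a level filter and with rows of several symbols left out. Those 2 settings could not change them, since the 9 genes pass the filter, have rows of their own and keep their deposited q-values. At 5 FPKM or more Vegfc and Pgf are not tested, which leaves 5 higher and 2 lower. Requiring also a log2 fold of 1 or more in size leaves 6 VEGF genes higher and 0 lower. Of all 13356 genes it leaves 2688 higher and 368 lower. It leaves 0 of the lower signalling, semaphorin and plexin, hypoxia and modulator genes. At q under 0.01, 2712 of all 13356 genes were higher and 1026 lower. At this threshold 5 of 42 signalling genes, 0 of 20 hypoxia genes and 1 of 22 modulator genes were lower. At a minimum of 5 FPKM fewer genes are tested, and 1643 of 9558 were higher. At this level 10 of 19 VEGF-induced genes and 7 of 9 semaphorin and plexin genes were higher. The median log2 difference of the VEGF genes was 1.66, 2.60 with 0.1 FPKM added in place of 1 FPKM, and 2.2 when centred on 76 ribosomal protein genes. No gene of the 9 changed sign under these settings or when centred on the median of all genes tested. The amount of FPKM added cannot change a sign. Centring on the median of all genes adds only 0.08 to every difference, and the smallest difference in size was 0.70, that of Nrp2. No paired analysis was possible because the table holds 1 combined value per group, so the replicate numbers have no values of their own; for the same reason no library could be left out. Depth is unknown, so it could not be said how far it limits genes below 1 FPKM such as Flt1 and Flt4 in the control group.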
